A study of Saccharomyces cerevisiae with 36 samples.

Results

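Phosphate starvation genes of budding yeast (Saccharomyces cerevisiae) were followed through 12 groups of RNA-seq libraries. The set comprised PHO5, PHO11, PHO12, PHO84, PHO89, SPL2, PHM6 and VTC3, 8 of the 7126 genes in the deposited table. They were taken by gene name, and they had drawn attention because their levels in untreated cells of the strains that carry a chaperone cassette differed from those in untreated wild type. The untreated levels chose the genes, so these levels are given as a description with no test, and the 8 genes were tested only between treated groups. The treated groups are of the same strains, so a strain difference that stands in every condition enters those tests too. Tests between cassette strains and WT are therefore not independent of the choice. All 8 passed the filter on low counts.

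Yeast cells sense inorganic phosphate through the PHO pathway. When phosphate is plentiful, the cyclin and kinase pair Pho80 and Pho85 phosphorylates the transcription factor Pho4, which is then exported from the nucleus. When phosphate runs short, the inhibitor Pho81 blocks the kinase, Pho4 stays nuclear and, with Pho2, turns on genes for secreted acid phosphatases, phosphate transporters and the machinery that stores phosphate as polyphosphate. Among the genes described here, PHO5, PHO11 and PHO12 encode secreted acid phosphatases, PHO84 and PHO89 encode high-affinity phosphate transporters of the plasma membrane, SPL2 encodes a small protein that restrains low-affinity phosphate uptake, VTC3 encodes a subunit of the vacuolar polyphosphate polymerase, and PHM6 encodes a protein of unknown function that is regulated by phosphate.

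The study compared 4 strains, each given the proline analog azetidine-2-carboxylic acid (AzC, 10 mM for 1 h at 25 °C), heat shocked (37 °C for 15 min) or left untreated, with 3 cultures per group grown in rich YPD medium at 25 °C to an OD600 of 0.8. All strains were MATa his3∆1 leu2∆0 ura3∆0 met15∆0. The hsf1∆ strain had HSF1, the gene of the heat shock transcription factor, replaced by a cassette with kanMX and the chaperone genes YDJ1, HSC82 and SSA2 under the ADH1, TEF1 and TDH3 promoters. The strain labelled HSF1, written HSF1+ here, carried the same cassette together with HSF1+, and its genotype also lists LYS2. The strain labelled msn2/4∆ carried msn2::hphMX4 and msn4::natMX4, disruptions of 2 general stress transcription factor genes, and the wild type (WT) carried none of these changes. The labels do not say how many clones stand for each strain, and each set of 3 replicates came from cultures of 1 strain. The cassette and kanMX separate both cassette strains from WT, so that in those comparisons the cassette, its marker and any other difference of strain construction cannot be told apart.

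The regulatory sequences of the 8 genes were read from the R64 genome, the build the labels name, and are shown because all 8 share 1 of them. Pho4 is known to bind the letters CACGTG, with CACGTT as a weaker site. In the 500 bases before the first coding base, CACGTG was present in 8 of 8 genes, against 374 of 6021 protein-coding genes (6.21%). On both strands CACGTT was present in 7 of 8, all but SPL2, against 962 of 6021 (16%). A total of 2 or more matches to either motif was present in 8 of 8, against 163 of 6021 (2.71%). After the 8 windows had been looked at, the longer string CACGTGGG was searched on both strands, and it was present in 8 of 8 windows, against 29 of 6021 (0.482%). A match is a description of the sequence and not a measured binding site. Each line gives that string in capitals with 10 bases on either side, on the strand of the gene and 5′ to 3′. VTC3 holds it in the opposite orientation, which reads CCCACGTG, and SPL2 holds 1 copy in each orientation, of which the copy nearest the coding sequence is printed.
PHO5: ttggcactcaCACGTGGGactagcacag
PHO11: ttggcgttcaCACGTGGGtttaaaaagg
PHO12: ttggcgttcaCACGTGGGtttaaaaagg
PHO84: ttatttccagCACGTGGGgcggaaatta
PHO89: gacaatgcagCACGTGGGagacaaatag
SPL2: tctctcttttCCCACGTGctccgctctc
PHM6: gcttcgctgaCACGTGGGaggtgggata
VTC3: tgtgcgagggCCCACGTGgcttaataca

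The 3 acid phosphatase genes share a further stretch around the string: the PHO11 and PHO12 lines are identical, and the PHO5 line begins with the same letters ttggc. The printed bases lie at chrII:431187-431214 for PHO5, chrI:225167-225194 for PHO11, chrVIII:551806-551833 for PHO12, chrXIII:26197-26224 for PHO84, chrII:798828-798855 for PHO89, chrVIII:375175-375202 for SPL2, chrIV:1022583-1022610 for PHM6 and chrXVI:517348-517375 for VTC3. The string starts 253 bases before the first coding base in PHO5, 283 in PHO11 and PHO12, 414 in PHO84, 323 in PHO89, 92 in SPL2 (its other copy 147), 279 in PHM6 and 347 in VTC3. SPL2 held 4 matches to CACGTG, at 361, 147, 90 and 31 bases, and no CACGTT.

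Longer windows are shown for PHO5, whose group levels were the most finely ordered, and for PHO84, whose level differed least between strains in untreated cells. The letters of CACGTG are in capitals, as are those of CACGTT and its reverse AACGTG. The PHO5 window holds 300 bases from 400 bases before the first coding base (chrII:431052-431351, minus strand), and the PHO84 window covers 500 to 201 bases before it (chrXIII:26001-26300, minus strand).
PHO5: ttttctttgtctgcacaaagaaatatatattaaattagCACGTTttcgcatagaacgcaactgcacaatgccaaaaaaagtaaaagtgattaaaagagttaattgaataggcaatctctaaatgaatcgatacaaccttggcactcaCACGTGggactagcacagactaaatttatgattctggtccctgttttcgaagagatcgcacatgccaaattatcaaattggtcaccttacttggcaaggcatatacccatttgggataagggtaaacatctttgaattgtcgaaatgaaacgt
PHO84: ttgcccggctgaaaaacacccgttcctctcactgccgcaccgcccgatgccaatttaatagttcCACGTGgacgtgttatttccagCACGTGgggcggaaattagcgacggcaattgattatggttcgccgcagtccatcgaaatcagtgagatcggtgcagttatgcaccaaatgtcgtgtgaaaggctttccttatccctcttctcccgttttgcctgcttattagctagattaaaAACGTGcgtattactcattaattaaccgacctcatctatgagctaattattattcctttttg

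**Figure D1:**
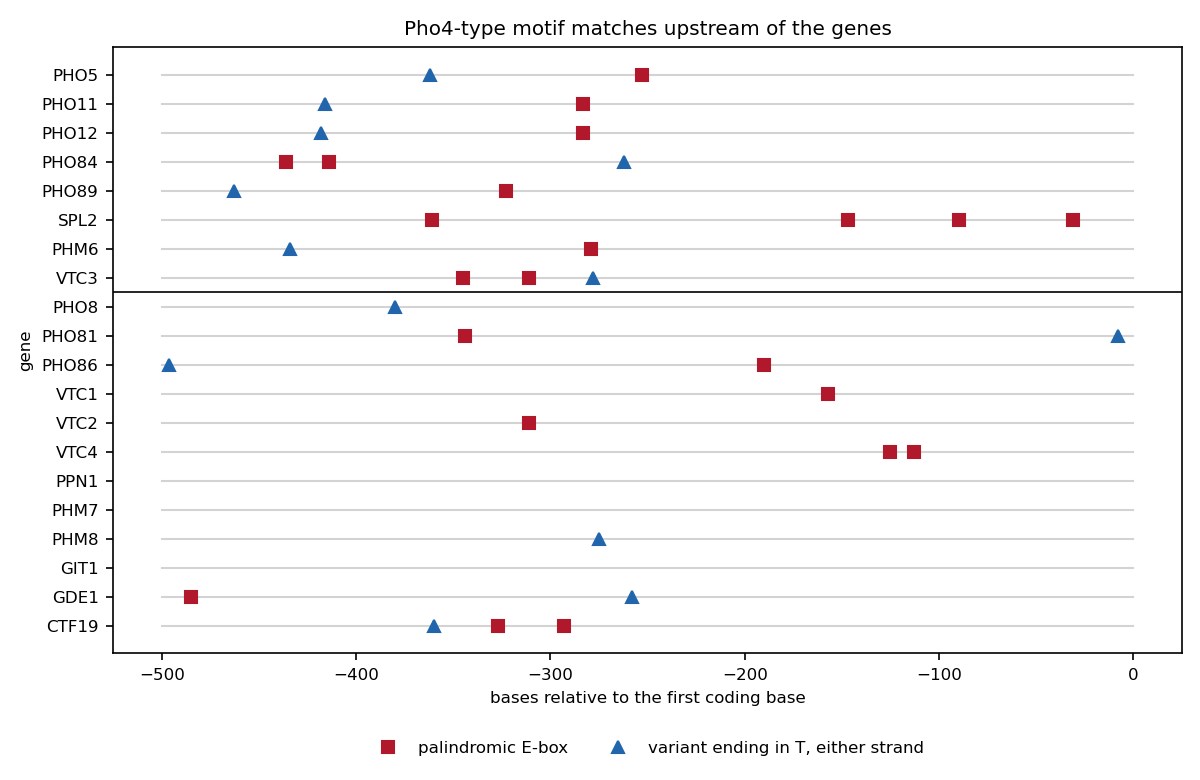
Positions of CACGTG (squares) and CACGTT (triangles) in the 500 bases before the first coding base of each gene, with distance to that base in bases on the horizontal axis 1 line per gene, the 8 genes above the black line and 12 other phosphate-starvation targets below it. Above it CACGTG stands on all 8 lines and CACGTT on all but that of SPL2, and below it CACGTG stands on 7 of 12 lines.

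The coding sequences are those of PHO5 (YBR093C, chrII:429548-430951, minus strand), PHO11 (YAR071W, chrI:225460-226863, plus strand), PHO12 (YHR215W, chrVIII:552099-553502, plus strand), PHO84 (YML123C, chrXIII:24037-25800, minus strand), PHO89 (YBR296C, chrII:796798-798522, minus strand), SPL2 (YHR136C, chrVIII:374654-375100, minus strand), PHM6 (YDR281C, chrIV:1022007-1022321, minus strand) and VTC3 (YPL019C, chrXVI:514511-517018, minus strand), in build R64. PHO11 and PHO12 are both 1404 bases long and differ at 4 positions, and 75.2% of their windows of 100 bases are identical, so their reads can be split between them in ways the sources used here do not state. PHO5 and its neighbour PHO3, 446 bases apart, are 86.54% identical and share no window of 100 bases. PHO84 overlaps a non-coding gene on the other strand, YNCM0001W, and no source used here gives the strand setting of the counting, so reads of these overlapping genes cannot be told apart.

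Values are CPM, each library's counts scaled to a common total and adjusted for library composition. Totals ran from 8159203 to 99558095 counts per library with a median of 13193876, and 4 libraries held at least 42724231 (untreated WT 2 and 3, AzC-treated HSF1+ 1 and 2). The deleted genes were read first. HSF1 stood at 14.6 ± 2.15 CPM in untreated hsf1∆, 55.4 ± 1.52 in HSF1+ and 98.4 ± 3.76 in WT (mean ± SD, n = 3, as for all means here). MSN2 stood at 1.41 ± 0.596 CPM in the strain labelled msn2/4∆ and 132.4 ± 3.12 in WT, but MSN4 stood at 52.9 ± 4.81 in that mutant and 38.4 ± 7.53 in WT, so the word "labelled" is kept. The α-factor genes MF(ALPHA)1 and MF(ALPHA)2 reached at most 1.46 CPM in any library, and the a-specific genes MFA1, MFA2, STE2 and BAR1 stood at 35.8 CPM or more in every library. STE3 and SAG1, the other α-specific genes of the list, stood at 3.59 to 18.6 CPM and 38.3 to 99.2 CPM.

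A limit holds for every value of AzC-treated hsf1∆. Over all genes, its 3 libraries could not be told from the untreated hsf1∆ libraries: edgeR called 0 of 6109 genes (1 at an adjusted p below 0.05 whatever the fold), 174 had an unadjusted p below 0.05, and DESeq2 also called 0 genes. By the same rule 292 genes were called between AzC-treated and untreated HSF1+, 1404 in labelled msn2/4∆ and 1296 in WT. Results of hsf1∆ against WT under AzC are therefore mostly printed with those of HSF1+ against WT, which do not need these 3 libraries. Comparisons of hsf1∆ with HSF1+ under AzC cannot avoid them. Comparisons of AzC with heat shock in hsf1∆ do not always have an HSF1+ value beside them.

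In untreated cells all 8 genes were lower in both cassette strains than in labelled msn2/4∆ and WT, with no overlap between libraries. Against WT the log2 differences ran from -4.98 in PHO12 to -1.44 in PHO84 for hsf1∆ (median -4.20, all tested genes -0.03) and from -5.27 in SPL2 to -1.88 in PHO84 for HSF1+ (median -4.39, all tested genes -0.03). Over all tested genes 11.7% were called for hsf1∆ against WT and 7.45% for HSF1+ against WT, by an adjusted p under 0.05 and a change of 2-fold or more. The 8 genes were chosen on these values, so nothing is read from that comparison. The share of all genes free of overlap was not counted. Against labelled msn2/4∆, 12.8% of all genes were called for hsf1∆ and 8.50% for HSF1+. In bulk RNA, fewer cells with the transcript and less transcript in each cell cannot be told apart.

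PHO5 had 34.8, 28.6 and 24.3 CPM in the untreated hsf1∆ libraries, 12.3, 15.0 and 13.9 CPM in untreated HSF1+, 689, 626 and 522 CPM in untreated labelled msn2/4∆ and 291, 336 and 257 CPM in untreated WT. The highest cassette library stood at 34.8 CPM and the lowest of the others at 257 CPM. PHO5 was also the gene with the largest difference between the cassette strains, 29.2 CPM in hsf1∆ against 13.8 in HSF1+, a log2 difference of 1.09 ± 0.14 (± standard error).

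PHO11 had 5.30, 4.18 and 4.06 CPM in the untreated hsf1∆ libraries, 4.85, 4.72 and 4.44 CPM in untreated HSF1+, 225, 201 and 131.8 CPM in untreated labelled msn2/4∆ and 122.7, 100.8 and 64.3 CPM in untreated WT. PHO12 had 9.08, 8.24 and 8.29 CPM in the untreated hsf1∆ libraries, 6.91, 8.36 and 6.66 CPM in untreated HSF1+, 524, 455 and 373 CPM in untreated labelled msn2/4∆ and 327, 296 and 190.5 CPM in untreated WT. Within labelled msn2/4∆ and within WT the third library was the lowest for both genes, yet the lowest such library was 12.1 times the highest cassette library for PHO11 and 21.0 times for PHO12. The near-identity of the pair makes their sum the safer value, and the split between them differed by strain: the PHO12 count was 1.21 to 2.07 times the PHO11 count in the 18 libraries of the cassette strains (median 1.61) and 2.03 to 4.31 times in the other 18 (median 2.81).

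PHO84 had 1222, 1001 and 945 CPM in the untreated hsf1∆ libraries, 821, 836 and 680 CPM in untreated HSF1+, 3162, 3297 and 2933 CPM in untreated labelled msn2/4∆ and 2818, 3108 and 2691 CPM in untreated WT. The lowest WT library was 2.20 times the highest cassette library, and its difference from WT was the smallest, -1.44 ± 0.32 on the log2 scale for hsf1∆ and -1.88 ± 0.32 for HSF1+. PHO89, the sodium-dependent transporter, had 10.3, 9.06 and 10.4 CPM in the untreated hsf1∆ libraries, 10.7, 9.81 and 6.37 CPM in untreated HSF1+, 533, 463 and 288 CPM in untreated labelled msn2/4∆ and 335, 253 and 108.4 CPM in untreated WT. Its WT libraries spread 3.09-fold, and the lowest of them was 10.1 times the highest cassette library.

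SPL2 had 4.88, 4.41 and 3.41 CPM in the untreated hsf1∆ libraries, 2.38, 2.18 and 2.67 CPM in untreated HSF1+, 125.3, 105.1 and 103.98 CPM in untreated labelled msn2/4∆ and 103.2, 85.5 and 92.0 CPM in untreated WT. The gene was 22.1-fold lower in hsf1∆ and 38.7-fold lower in HSF1+ than in WT, from log2 differences of -4.47 ± 0.17 and -5.27 ± 0.18. PHM6 had 3.53, 2.44 and 2.11 CPM in the untreated hsf1∆ libraries, 4.61, 4.87 and 3.78 CPM in untreated HSF1+, 54.2, 51.8 and 43.6 CPM in untreated labelled msn2/4∆ and 50.3, 45.7 and 35.7 CPM in untreated WT. It was the only member whose untreated level was lower in hsf1∆ than in HSF1+ by more than 0.5 on the log2 scale (-0.70 ± 0.31).

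VTC3 had 260.3, 257 and 242 CPM in the untreated hsf1∆ libraries, 219, 212 and 209.7 CPM in untreated HSF1+, 1328, 1286 and 1163 CPM in untreated labelled msn2/4∆ and 1177, 1254 and 1054 CPM in untreated WT. Spread within groups was small for this gene, and the lowest WT library was 4.05 times the highest cassette library. Labelled msn2/4∆ lay at or above WT for every one of the 8 genes, with log2 differences between 0.12 in VTC3 and 1.05 in PHO5. Of the 8 genes, 4 were free of overlap, and the share of all genes free of overlap was not counted. By the other measure, 0.540% of all genes were called in that comparison.

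**Figure D2:**
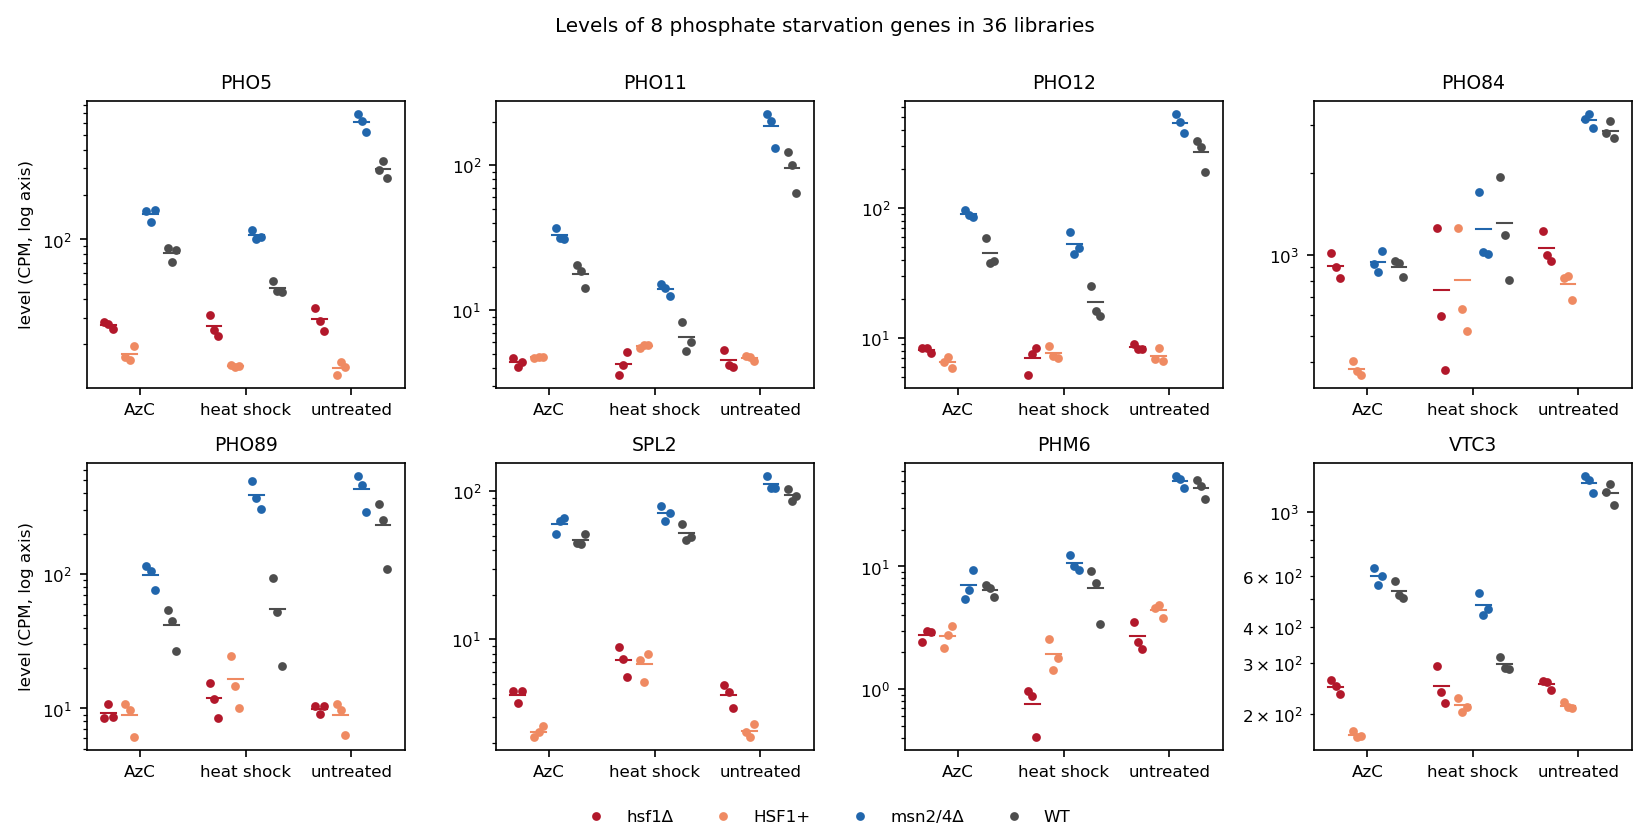
CPM of each gene in every library on a log axis, 1 panel per gene, with points for libraries and bars for group means, arranged by condition (AzC, heat shock, untreated) and, within it, by strain (hsf1∆, HSF1+, labelled msn2/4∆, WT). Untreated labelled msn2/4∆ and WT stand highest in the panels of 7 genes, and in that of PHO89 heat-shocked labelled msn2/4∆ stands between them.

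Per kilobase of coding sequence, the untreated WT levels were 1628 CPM for PHO84, 463 for VTC3, 209.9 for PHO5, 209 for SPL2, 193 for PHO12, 139 for PHM6, 134.7 for PHO89 and 68.3 for PHO11. In untreated HSF1+ the same scale gave 442 for PHO84 and 85.2 for VTC3, while the other 6 genes lay between 3.33 for PHO11 and 14.0 for PHM6. The transporter PHO84 and the polyphosphate gene VTC3 had the highest levels per length of the set in both strains.

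Under AzC all 8 genes were lower in HSF1+ than in WT, and 7 of 8 were lower in hsf1∆ than in WT. The test set the treated libraries of each strain against each other in 1 model of all 12 groups (edgeR quasi-likelihood, Benjamini-Hochberg adjustment over 6109 genes, 3 libraries per group), and a gene was called when its adjusted p was under 0.05 and its difference 2-fold or more. HSF1+ against WT called 8 of 8 members lower, where 9.54% of all genes were called and 2.64% were called lower. The libraries labelled AzC-treated hsf1∆ against WT called 7 of 8 lower, where 18.1% were called and 7.12% were called lower. Median log2 differences were -2.05 for HSF1+ (all tested genes 0.00) and -1.81 for hsf1∆ (all tested genes 0.02). The genes were chosen on untreated levels of the same strains, so these calls and those under heat shock are not independent of that choice.

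SPL2 showed the largest AzC difference. It had 4.46, 3.69 and 4.47 CPM in the AzC-treated hsf1∆ libraries, 2.19, 2.37 and 2.60 CPM in AzC-treated HSF1+, 51.6, 63.0 and 65.4 CPM in AzC-treated labelled msn2/4∆ and 44.5, 44.1 and 51.2 CPM in AzC-treated WT. The highest cassette library stood at 4.47 CPM and the lowest of the others at 44.1 CPM, with log2 differences from WT of -3.47 ± 0.16 (adjusted p = 1.93e-16) in hsf1∆ and -4.31 ± 0.16 (adjusted p = 1.09e-17) in HSF1+.

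PHO5 had 27.9, 27.2 and 25.0 CPM in the AzC-treated hsf1∆ libraries, 16.4, 15.5 and 19.3 CPM in AzC-treated HSF1+, 156, 130.2 and 157 CPM in AzC-treated labelled msn2/4∆ and 88.1, 70.1 and 84.8 CPM in AzC-treated WT. The 4 strains formed 4 separate ranges, lowest in HSF1+ and highest in labelled msn2/4∆. The log2 difference from WT was -1.60 ± 0.14 (adjusted p = 4.02e-11) in hsf1∆ and -2.26 ± 0.14 (adjusted p = 1.29e-13) in HSF1+.

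The near-identical acid phosphatase genes were low together in the cassette strains. PHO11 averaged 4.39 ± 0.324 CPM in AzC-treated hsf1∆, 4.75 ± 0.0567 in HSF1+, 33.3 ± 3.21 in labelled msn2/4∆ and 17.8 ± 3.18 in WT. PHO12 averaged 8.14 ± 0.433 CPM in AzC-treated hsf1∆, 6.52 ± 0.633 in HSF1+, 89.9 ± 6.28 in labelled msn2/4∆ and 45.2 ± 11.5 in WT. With their counts added into 1 gene, the log2 difference from WT was -2.33 ± 0.20 in hsf1∆ (adjusted p = 7.98e-11) and -2.48 ± 0.20 in HSF1+ (adjusted p = 3.02e-11).

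VTC3 had 262, 249 and 234 CPM in the AzC-treated hsf1∆ libraries, 175, 166 and 167 CPM in AzC-treated HSF1+, 637, 557 and 602 CPM in AzC-treated labelled msn2/4∆ and 575, 514 and 503 CPM in AzC-treated WT. Each cassette library was below each WT library, at log2 differences of -1.09 ± 0.09 (adjusted p = 1.86e-11) in hsf1∆ and -1.65 ± 0.091 (adjusted p = 2.01e-14) in HSF1+. PHO89 averaged 9.29 ± 1.29 CPM in hsf1∆, 8.90 ± 2.50 in HSF1+, 99.0 ± 20.5 in labelled msn2/4∆ and 42.0 ± 14.0 in WT, and its log2 difference from WT was -2.18 ± 0.44 (adjusted p = 9.33e-05) in hsf1∆ and -2.19 ± 0.42 (adjusted p = 0.000113) in HSF1+. PHM6 was low throughout under AzC, at 2.77 ± 0.302 CPM in hsf1∆, 2.73 ± 0.562 in HSF1+, 7.10 ± 2.05 in labelled msn2/4∆ and 6.45 ± 0.757 in WT. The cassette strains were nonetheless lower than WT, at log2 differences of -1.23 ± 0.28 (adjusted p = 0.000427) in hsf1∆ and -1.29 ± 0.25 (adjusted p = 0.00017) in HSF1+.

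PHO84 separated the cassette strains. It had 1014, 902 and 816 CPM in the AzC-treated hsf1∆ libraries, 403, 372 and 358 CPM in AzC-treated HSF1+, 921, 865 and 1029 CPM in AzC-treated labelled msn2/4∆ and 947, 933 and 824 CPM in AzC-treated WT. The AzC-treated hsf1∆ libraries overlapped those of WT (0.02 ± 0.31, adjusted p = 0.969), while the HSF1+ libraries were below all others (-1.25 ± 0.32, adjusted p = 0.00224). PHO84 was the only member called between hsf1∆ and HSF1+ under AzC, higher by 1.27 ± 0.32 (adjusted p = 0.00162), where 6.37% of all genes were called. The AzC-treated hsf1∆ libraries could not be told from untreated hsf1∆, and the part of that in this difference was not tested.

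Labelled msn2/4∆ against WT under AzC called only PHO89, higher by 1.24 ± 0.40 (adjusted p = 0.0329), where 2.32% of all genes were called. That call was lost when any of 4 of the 6 libraries was left out (labelled msn2/4∆ 1 or 2, WT 2 or 3), at values of 0.997 to 1.28 without them. PHO5 (0.86 ± 0.13, adjusted p = 1.93e-05), PHO11 (0.90 ± 0.19, adjusted p = 0.0013) and PHO12 (0.99 ± 0.19, adjusted p = 0.000641) were also higher, by less than 2-fold. Libraries of 5 of the 8 members, PHO5, PHO11 and PHO12 among them, did not overlap between the 2 strains. The share of all genes free of overlap was not counted. With replicate number as a block, PHO12 was called as well (1.00, adjusted p = 1.48e-05), which made 2 of 8.

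**Figure D3:**
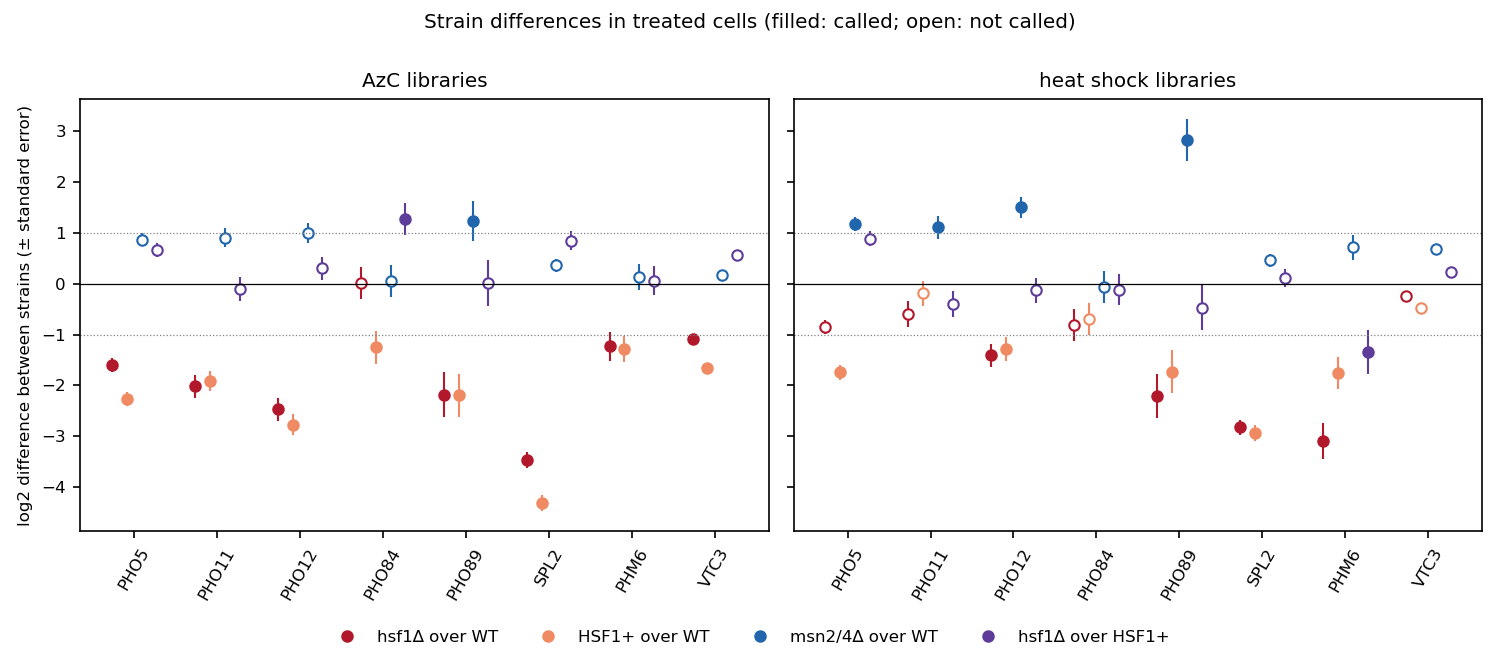
Fitted log2 differences (points, with bars of 1 standard error) of hsf1∆, HSF1+ and labelled msn2/4∆ against WT and of hsf1∆ against HSF1+, under AzC and under heat shock, for the 8 genes. Filled points were called and open points were not. Under AzC all 8 points of HSF1+ against WT are filled and negative, and under heat shock 5 are.

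Under heat shock HSF1+ against WT called 5 of 8 members lower (PHO5, PHO12, PHO89, SPL2 and PHM6), where 6.91% of all genes were called and 2.67% were called lower. Heat-shocked hsf1∆ against WT called 4 of 8 lower (PHO12, PHO89, SPL2 and PHM6), where 13.9% were called and 8.40% were called lower. Whatever the fold, all 8 members had an adjusted p under 0.05 in that comparison, as did 60.4% of all genes. The median log2 difference was -1.51 for HSF1+ (all tested genes 0.00) and -1.13 for hsf1∆ (all tested genes -0.07).

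SPL2 had 8.93, 7.32 and 5.59 CPM in the heat-shocked hsf1∆ libraries, 7.24, 5.12 and 7.95 CPM in heat-shocked HSF1+, 79.1, 63.0 and 70.8 CPM in heat-shocked labelled msn2/4∆ and 60.1, 46.7 and 48.6 CPM in heat-shocked WT. The highest cassette library stood at 8.93 CPM and the lowest of the others at 46.7 CPM, at log2 differences from WT of -2.83 ± 0.15 (adjusted p = 3.65e-15) in hsf1∆ and -2.94 ± 0.16 (adjusted p = 1.36e-14) in HSF1+.

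PHM6 had 0.971, 0.876 and 0.404 CPM in the heat-shocked hsf1∆ libraries, 2.55, 1.44 and 1.80 CPM in heat-shocked HSF1+, 12.4, 10.2 and 9.38 CPM in heat-shocked labelled msn2/4∆ and 9.20, 7.30 and 3.40 CPM in heat-shocked WT. The hsf1∆ libraries were the lowest of all for this gene, from counts of at least 6, and no cassette library reached the lowest WT library. The log2 difference from WT was -3.09 ± 0.35 (adjusted p = 1.45e-08) in hsf1∆ and -1.75 ± 0.32 (adjusted p = 5.94e-05) in HSF1+. PHM6 was also the only member called between hsf1∆ and HSF1+ under heat shock, lower at -1.35 ± 0.43 (adjusted p = 0.00965) on the log2 scale, where 9.30% of all genes were called. The call was lost without hsf1∆ library 3 (-1.06) or HSF1+ library 1 (-1.08).

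PHO5 had 31.3, 24.8 and 22.4 CPM in the heat-shocked hsf1∆ libraries, 14.4, 14.0 and 14.2 CPM in heat-shocked HSF1+, 116.04, 101.3 and 103.4 CPM in heat-shocked labelled msn2/4∆ and 52.9, 45.0 and 44.5 CPM in heat-shocked WT. Again the strains formed 4 separate ranges. HSF1+ was lower than WT, at -1.74 ± 0.14 (adjusted p = 5.88e-11), and hsf1∆ had a difference of -0.86 ± 0.14 (adjusted p = 3.73e-06), which is under 2-fold. PHO5 was higher in hsf1∆ than in HSF1+ in both treatments by less than 2-fold, at 0.66 ± 0.14 (adjusted p = 0.000228) under AzC and 0.88 ± 0.14 (adjusted p = 9.15e-06) under heat shock.

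PHO11 had the smallest difference between HSF1+ and WT under heat shock. It had 3.56, 4.19 and 5.12 CPM in the heat-shocked hsf1∆ libraries, 5.51, 5.76 and 5.77 CPM in heat-shocked HSF1+, 15.2, 14.1 and 12.6 CPM in heat-shocked labelled msn2/4∆ and 8.34, 5.22 and 6.07 CPM in heat-shocked WT. The HSF1+ and WT libraries overlapped, and their difference of -0.19 ± 0.25 (adjusted p = 0.601) was not called. PHO12 averaged 7.01 ± 1.64 CPM in heat-shocked hsf1∆, 7.67 ± 0.924 in HSF1+, 52.8 ± 11.4 in labelled msn2/4∆ and 18.8 ± 5.71 in WT, and it was called in hsf1∆ (-1.41 ± 0.23, adjusted p = 5.18e-06) and in HSF1+ (-1.28 ± 0.23, adjusted p = 6.98e-05). With both genes added, hsf1∆ was called (-1.16 ± 0.21, adjusted p = 2.23e-05) and HSF1+ had a difference under 2-fold (-0.91 ± 0.21, adjusted p = 0.000995). Without replicate 1 of every group, PHO12 in hsf1∆ had a log2 difference of -0.97, under 2-fold.

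PHO89 showed the widest span of the heat-shocked groups. It had 15.5, 11.7 and 8.48 CPM in the heat-shocked hsf1∆ libraries, 24.6, 14.7 and 10.1 CPM in heat-shocked HSF1+, 495, 371 and 308 CPM in heat-shocked labelled msn2/4∆ and 93.3, 52.3 and 20.8 CPM in heat-shocked WT. Labelled msn2/4∆ lay above every other library, and the WT libraries spread 4.48-fold and reached down to the range of HSF1+. The log2 difference from WT was -2.21 ± 0.43 (adjusted p = 6.4e-05) in hsf1∆ and -1.73 ± 0.42 (adjusted p = 0.00197) in HSF1+. In a fit to those 2 groups alone, HSF1+ was not called (-1.73, adjusted p = 0.0854), and without WT library 1 its difference was -1.13 (adjusted p = 0.0373). Labelled msn2/4∆ was higher than WT by 2.83 ± 0.41 (adjusted p = 1.77e-06).

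Labelled msn2/4∆ against WT under heat shock called 4 of 8 members higher, where 9.66% of all genes were called and 2.10% were called higher. Beside PHO89 these were PHO5 at 1.17 ± 0.13 (adjusted p = 2.84e-08), PHO11 at 1.10 ± 0.22 (adjusted p = 0.00016) and PHO12 at 1.50 ± 0.21 (adjusted p = 7.24e-07). The other members had differences from -0.07 in PHO84 to 0.71 in PHM6. Without WT library 2, PHO11 was at 0.97, under 2-fold. The cassette comparisons use the same WT libraries.

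PHO84 and VTC3 were not called in any strain against WT under heat shock. PHO84 had 1257, 592 and 373 CPM in the heat-shocked hsf1∆ libraries, 1257, 632 and 520.2 CPM in heat-shocked HSF1+, 1702, 1027 and 1008 CPM in heat-shocked labelled msn2/4∆ and 1932, 1177 and 807 CPM in heat-shocked WT. In each strain the first library was the highest, at 1.64 to 2.12 times the highest of the other two, and the strains overlapped. Across the 8 members the first heat-shocked library was above its group mean by 0.24 to 0.44 on the log2 scale in all 4 strains. For the first untreated library this deviation ran from 0.04 in HSF1+ to 0.22 in WT. For the first AzC-treated library it ran from -0.002 in HSF1+ to 0.18 in WT. The part of a shared handling of the first replicates in this was not tested. Without replicate 1 of every group, PHO84 was called lower in hsf1∆ than in WT (-1.04, adjusted p = 0.000147), and it was also called without hsf1∆ library 1 (-1.41) or WT library 3 (-1.07). The HSF1+ difference was called without HSF1+ library 1 (-1.18). VTC3 averaged 249.9 ± 39.2 CPM in heat-shocked hsf1∆, 214 ± 12.2 in HSF1+, 476 ± 44.1 in labelled msn2/4∆ and 296 ± 16.8 in WT. It differed from WT by less than 2-fold but with adjusted p under 0.05 in each strain. The log2 differences were 0.68 ± 0.089 in labelled msn2/4∆ (adjusted p = 3.24e-07), -0.47 ± 0.089 in HSF1+ (adjusted p = 0.000113) and -0.25 ± 0.089 in hsf1∆ (adjusted p = 0.0185). Only the hsf1∆ libraries overlapped those of WT.

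Set against untreated cells of the same strain, the genes were lower after either treatment in WT and labelled msn2/4∆ and nearly level in the cassette strains. These changes share the untreated libraries that chose the genes and are given as a description. In WT the log2 change ran from -2.76 in PHM6 to -1.003 in SPL2 under AzC (median -2.14, all tested genes 0.02) and from -3.88 in PHO11 to -0.85 in SPL2 under heat shock (median -2.35, all tested genes 0.05). All 8 genes were free of overlap in both, and 21.2% and 36.6% of all genes were called. Being called is another measure, and the share of all genes free of overlap was not counted in any strain. In labelled msn2/4∆ the median was -2.08 under AzC and -1.81 under heat shock, with 8 and 7 genes free of overlap, beside 23.0% and 32.6% called. The exception was PHO89 under heat shock, at 391 CPM against 428 CPM untreated.

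In the cassette strains the same changes were small. The median was -0.06 under AzC and -0.12 under heat shock in hsf1∆, and -0.09 and 0.06 in HSF1+. No gene was free of overlap in hsf1∆ under AzC, beside 0% of all genes called, and 2 were under heat shock, beside 32.2% called. In HSF1+ 4 genes were free of overlap under AzC, beside 4.78% called, and 3 under heat shock, beside 30.5% called. These shares are of genes called and not of genes free of overlap, which were not counted over all genes. The widest were SPL2 under heat shock (0.79 ± 0.19 in hsf1∆, 1.48 ± 0.21 in HSF1+) and PHM6 under heat shock (-1.83 ± 0.41 in hsf1∆, -1.19 ± 0.33 in HSF1+), which moved in opposite directions, and PHO84 under AzC in HSF1+ (-1.04 ± 0.32). Most of the genes were already low in untreated cassette cells. In untreated HSF1+, SPL2 averaged 2.41 CPM, PHM6 4.42, PHO11 4.67, PHO12 7.31, PHO89 8.97 and PHO5 13.8, but VTC3 averaged 214 and PHO84 779. How far the low levels left room for a further fall was not tested.

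**Figure D4:**
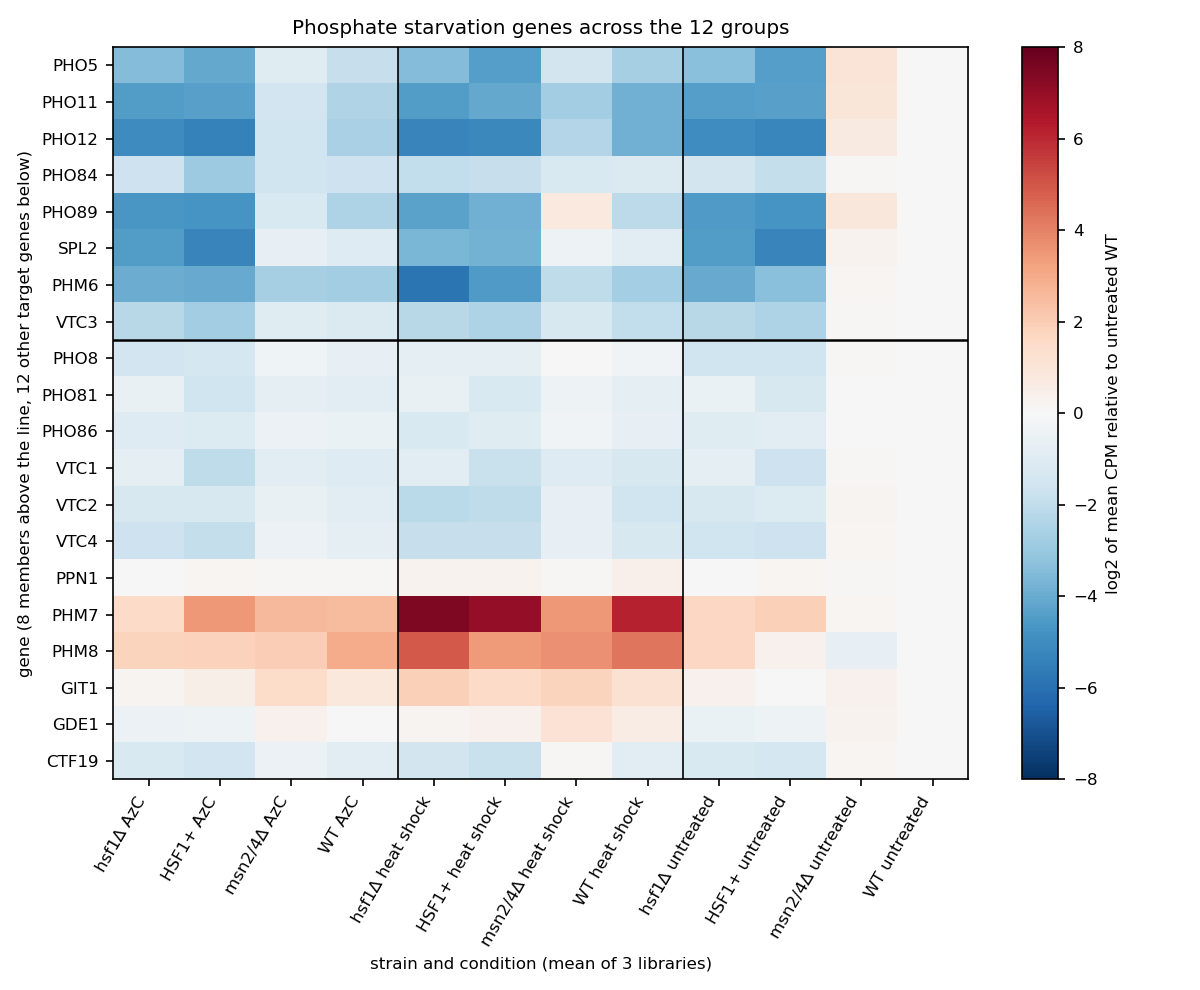
Log2 of the mean CPM of each group relative to untreated WT, with the 8 genes above the line and 12 other phosphate-starvation targets below it. Columns run by condition and strain. The rows of the 8 genes are low in every cassette column, and below the line PHM7 stands out as high in the heat-shocked columns of hsf1∆, HSF1+ and WT.

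The order of the 12 group means was read for each gene, with neighbours counted as apart when none of their libraries overlapped. Such pairs were not counted over all genes, so the counts are a description. Untreated labelled msn2/4∆ was the highest group for all 8 genes. The lowest was AzC-treated HSF1+ for PHO12, PHO84, PHO89, SPL2 and VTC3, heat-shocked hsf1∆ for PHO11 and PHM6, and untreated HSF1+ for PHO5. PHO5 was the most finely ordered, with 8 of 11 neighbouring pairs apart, and only the 3 hsf1∆ groups and the pair of heat-shocked and untreated HSF1+ could not be separated. PHO84 and PHO89 were the least, with 1 of 11 pairs apart each. For PHO84 that step lay below untreated WT, and the 10 groups beneath overlapped from neighbour to neighbour. For PHO89 it lay between the 6 groups of labelled msn2/4∆ and WT and the 6 cassette groups. PHO11, PHO12, SPL2 and VTC3 had 5 pairs apart and PHM6 had 4. The highest group mean was 69.1 times the lowest for PHO12, 66.5 times for PHM6, 48.1 for PHO89, 46.7 for SPL2, 44.5 for PHO5, 43.3 for PHO11, 8.29 for PHO84 and 7.45 for VTC3.

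AzC and heat shock were also compared directly within each strain, without the untreated libraries. The genes and tests were chosen with earlier results of these data known. In WT PHO11 (1.46 ± 0.22, adjusted p = 1.66e-06) and PHO12 (1.28 ± 0.21, adjusted p = 4.61e-06) were higher under AzC, 2 of 8 members, where 17.4% of all genes were called. As 1 summed gene they were called at 1.32 ± 0.20 (adjusted p = 1.19e-06). In labelled msn2/4∆ PHO11 was higher (1.25 ± 0.19, adjusted p = 2.96e-06) and PHO89 lower (-1.98 ± 0.39, adjusted p = 0.000104) under AzC, where 13.6% were called. The sum of PHO11 and PHO12 in that strain was not called (0.88 ± 0.18, adjusted p = 0.000196).

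In HSF1+ PHO84 (-1.09 ± 0.32, adjusted p = 0.00344) and SPL2 (-1.52 ± 0.18, adjusted p = 2.49e-08) were lower under AzC than under heat shock, 2 of 8 members, where 21.3% of all genes were called. Without HSF1+ heat-shock library 1, the PHO84 difference was -0.61 and was not called. In hsf1∆ PHM6 was higher under AzC (1.85 ± 0.39, adjusted p = 0.000108), 1 of 8, where 32.4% were called. The AzC-treated hsf1∆ libraries could not be told from untreated hsf1∆. Against untreated hsf1∆, PHM6 differed by 0.02 ± 0.33 under AzC and by -1.83 ± 0.41 under heat shock. PHM6 was not called between AzC and heat shock in HSF1+ (0.45 ± 0.32, adjusted p = 0.209). The remaining members differed by less than 2-fold in these strains.

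The difference between the strains was itself compared between AzC and heat shock, a test added after the data had been seen. For HSF1+ against WT, 4 members were further below WT under AzC: VTC3 by -1.18 ± 0.13 on the log2 scale (adjusted p = 6.93e-07), SPL2 by -1.37 ± 0.22 (adjusted p = 0.000181), PHO11 by -1.72 ± 0.32 (adjusted p = 0.000789) and PHO12 by -1.49 ± 0.31 (adjusted p = 0.00215), where 1.69% of all genes were called. Under AzC relative to heat shock, PHO11, PHO12 and VTC3 differed by 1.46, 1.28 and 0.84 in WT and by -0.26, -0.21 and -0.34 in HSF1+. SPL2 differed by -0.15 in WT and -1.52 in HSF1+. The part of the low HSF1+ levels of PHO11, PHO12 and SPL2 in this was not tested. For hsf1∆ against HSF1+, PHO84 (1.39 ± 0.45, adjusted p = 0.0149) and PHM6 (1.41 ± 0.52, adjusted p = 0.0322) were called, where 9.82% were. Both calls were lost without heat-shocked hsf1∆ library 3 (PHO84 1.07, PHM6 1.12) or HSF1+ library 1 (PHO84 0.91, PHM6 1.14), and that of PHM6 also without AzC-treated hsf1∆ library 2 or 3 or HSF1+ library 1.

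Other genes of the pathway were read from lists chosen by function. Of 12 further phosphate-starvation targets (PHO8, PHO81, PHO86, VTC1, VTC2, VTC4, PPN1, PHM7, PHM8, GIT1, GDE1 and CTF19), HSF1+ against WT under AzC called 2 lower and 0 higher. These were VTC4, the catalytic subunit of the polyphosphate polymerase (256 CPM in HSF1+, 573 in WT, -1.16 ± 0.073, adjusted p = 2.31e-13), and the phosphatase gene PHM8 (-1.14 ± 0.15, adjusted p = 3.42e-07). Of all genes 9.54% were called in that comparison and 2.64% were called lower. The median over the 12 was -0.59. Under heat shock the same comparison called none of the 12, at a median of -0.45, where 6.91% of all genes were called. Hsf1∆ against WT called PHM8 lower under AzC (-1.19 ± 0.15, adjusted p = 7.27e-08) and PHM7 higher under heat shock (1.30 ± 0.35, adjusted p = 0.00217). Of all genes 18.1% were called there under AzC and 13.9% under heat shock.

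Between the cassette strains, 2 of these targets were higher in hsf1∆ under AzC, where 6.37% of all genes were called. PHO81, the kinase inhibitor, had 121.5, 139.7 and 129.6 CPM in AzC-treated hsf1∆ and 63.7, 67.2 and 63.5 CPM in HSF1+, a log2 difference of 1.01 ± 0.079 (adjusted p = 2.66e-11). VTC1, another subunit of the polymerase, had 374, 335 and 337 CPM in hsf1∆ and 151, 142 and 156 CPM in HSF1+ (1.22 ± 0.093, adjusted p = 1.51e-11). Neither gene overlapped between the strains, and both also differed under heat shock by less than 2-fold (0.61 ± 0.079 and 0.88 ± 0.092). The share of all genes free of overlap was not counted. PHM7 was lower in hsf1∆ under AzC (-1.94 ± 0.39, adjusted p = 0.000148). PHM8 was higher in hsf1∆ under heat shock (1.48 ± 0.15, adjusted p = 2.93e-09), where 9.30% of all genes were called.

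In labelled msn2/4∆ against WT, CTF19 was higher under heat shock (1.03 ± 0.11, adjusted p = 7.97e-09), PHM7 was lower under heat shock (-2.74 ± 0.38, adjusted p = 7.17e-07) and PHM8 was lower under AzC (-1.005 ± 0.15, adjusted p = 1.53e-05). Of all genes 9.66% were called in that comparison under heat shock and 2.32% under AzC. CTF19 encodes a kinetochore protein and was listed because it shares a 632-base upstream region with VTC3.

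The 6 regulators of the list were PHO2, PHO4, PHO80, PHO85, the importin PSE1 and the exportin MSN5. PHO4 was not called in any comparison between strains, and it averaged 39.3 ± 4.91 CPM in hsf1∆, 32.1 ± 5.03 in HSF1+, 33.8 ± 3.44 in labelled msn2/4∆ and 31.0 ± 2.28 in WT under AzC. PHO2, PHO80, PHO85 and MSN5 were not called between strains either. PSE1, which carries Pho4 into the nucleus, was the exception: it was higher than in WT in AzC-treated hsf1∆ (592 CPM against 201, 1.56 ± 0.094, adjusted p = 3.88e-14), in AzC-treated HSF1+ (553 CPM, 1.46 ± 0.094, adjusted p = 3.85e-13) and in heat-shocked HSF1+ (1.23 ± 0.094, adjusted p = 1.23e-11). In the same order, 18.1%, 9.54% and 6.91% of all genes were called in these comparisons.

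A further 6 genes (PHO87, PHO90, PHO91, PHO88, SYG1 and GTR1) were listed under phosphate transport outside the starvation response. A place on that list does not make each a transporter gene. The low-affinity transporter gene PHO90 was higher in hsf1∆ than in WT under AzC (1.01 ± 0.26, adjusted p = 0.001), where 18.1% of all genes were called. HSF1+ against WT under AzC called 0 of the 6. PHO90 was lower in hsf1∆ than in HSF1+ under heat shock (-1.42 ± 0.28, adjusted p = 9.59e-05), where 9.30% were called. SYG1 was higher in hsf1∆ than in HSF1+ under heat shock (1.00 ± 0.11, adjusted p = 7.69e-09), and GTR1 was higher in HSF1+ than in WT under heat shock (1.05 ± 0.11, adjusted p = 1.26e-08). The shares of all genes called in these comparisons were 9.30% and 6.91%. None of the 7 genes of inositol pyrophosphate metabolism (PLC1, ARG82, IPK1, KCS1, VIP1, DDP1 and SIW14) and none of the 3 other polyphosphate genes (VTC5, PPN2 and PPX1) was called between strains in the treated libraries. Between 2.32% and 18.1% of all genes were called in those comparisons, so nothing is read from the absence of calls in lists this short. Among 3 other phosphatase genes, PHO13 was not called and DIA3 was lower in labelled msn2/4∆ than in WT under heat shock (-1.28 ± 0.13, adjusted p = 3.72e-09), where 9.66% of all genes were called.

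PHO3, the neighbour of PHO5 and the acid phosphatase gene that is not induced by phosphate starvation, had a different order of strains under AzC. It averaged 293 ± 41.0 CPM in hsf1∆, 294 ± 28.5 in HSF1+, 93.3 ± 14.3 in labelled msn2/4∆ and 130.1 ± 18.5 in WT, and was higher than in WT in hsf1∆ (1.17 ± 0.20, adjusted p = 8.81e-06) and in HSF1+ (1.18 ± 0.20, adjusted p = 2.13e-05). Under heat shock it was lower in hsf1∆ than in WT (-1.05 ± 0.20, adjusted p = 5.85e-05), where 13.9% of all genes were called. Under AzC the shares called against WT were 18.1% for hsf1∆ and 9.54% for HSF1+.

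In untreated cells the same 12 targets are given beside the shares of all genes called, 11.7% for hsf1∆, 7.45% for HSF1+ and 0.540% for labelled msn2/4∆, each against WT. HSF1+ against WT called 6 of them lower (PHO8, PHO81, VTC1, VTC2, VTC4 and CTF19) and PHM7 higher, and hsf1∆ against WT called 4 lower (PHO8, VTC2, VTC4 and CTF19) and PHM7 and PHM8 higher. Labelled msn2/4∆ against WT called none. VTC4 had 304, 316 and 300.5 CPM in hsf1∆, 303, 309 and 288 in HSF1+ and 907, 1038 and 876 in WT. PHO4 had 35.3, 43.2 and 42.8 CPM in hsf1∆, 39.1, 45.3 and 47.1 in HSF1+ and 53.6, 73.1 and 56.3 in WT, differences under 2-fold (-0.60 ± 0.15 and -0.48 ± 0.14).

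The profile of the 8 genes over the 12 group means was compared with that of 5232 other genes whose mean was 10 CPM or more. The nearest were VTC4 (Pearson r = 0.987), PHO86 (0.974), CTF19 (0.939), SAR1 (0.915), TFA1 (0.911), VIP1 (0.903) and the retrotransposon open reading frames YDR261C-D (0.896) and YLR227W-B (0.887), whose copies elsewhere in the genome share their sequence. PHO86 encodes an endoplasmic reticulum protein that Pho84 needs to leave that compartment, SAR1 a small GTPase of secretory vesicles, TFA1 a general transcription factor subunit and VIP1 an inositol pyrophosphate kinase. Likeness is of shape and not of size: SAR1 ran only between 253 CPM in AzC-treated HSF1+ and 355 CPM in untreated labelled msn2/4∆. Between the members, r ran from 0.751 (PHO84 with SPL2) to 0.987 (PHO12 with VTC3) over 28 pairs, with a median of 0.887. These are correlations over 12 group means that share strains and library preparation, given as a description.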

How the data were processed

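Total RNA of 36 cultures (RiboPure Yeast kit, poly-A-selected TruSeq libraries, NovaSeq, per the labels) was sequenced. The deposited table holds raw counts per gene, whole numbers with no normalization by the authors. The submitters' processing notes name the build R64 and the tools STAR, Salmon, Trim Galore and FastQC, with no version or role. No source used here gives the counting tool, its strand setting or its handling of reads shared by near-identical genes. Of the table's gene IDs, 6048 were found in the R64 RefSeq table and 1078 were not. The labels gave each group and replicate number.

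The 8 genes, the pathway lists and the tests were chosen with earlier results of these data known. In R 4.3.3 with edgeR 4.0.16, filterByExpr left 6109 genes, and 36 libraries with TMM factors entered 1 quasi-likelihood fit with a mean for each of 12 groups. Adjusted p-values are Benjamini-Hochberg values over all 6109 genes. Genes were called at an adjusted p below 0.05 and an absolute log2 difference of at least 1. Errors of CPM are SDs of 3 libraries, and errors of log2 differences are standard errors. The fit was tested on simulated counts with known changes. Named genes were the members, the listed genes, the deleted and cassette genes, and the 8 genes with the most similar profile.

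Alternatives were RLE size factors, library size alone, the compared groups alone, replicate number as a block, DESeq2 1.42.0, no filter on low counts, each library left out, PHO11 and PHO12 summed and, added after the data were seen, replicates 2 and 3 alone and the interactions. Single-gene values were followed for those called in at least 1 fit. Same-numbered libraries were checked for pairing by the correlation of their deviations from group means over genes: in 9 of 12 comparisons all exceeded 0.1 (range 0.05 to 0.67 over the 12). Promoters of 500 bases were read from the R64 genome, and short windows next to chromosome ends were kept.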

Additional observations from a re-analysis of the deposited data

Results flagged for a closer look

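In 6 results the difference between strains was itself different under AzC and under heat shock, by an interaction term in the model of all libraries. These tests were added after the data had been seen, and they use treated libraries alone.

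For HSF1+ against WT, the difference under AzC minus that under heat shock was -1.18 in VTC3, -1.37 in SPL2, -1.72 in PHO11 and -1.49 in PHO12 on the log2 scale. Each gene had a lower mean in HSF1+ than in WT under both treatments, though PHO11 and VTC3 were not called under heat shock. Between the treatments, PHO11, PHO12 and VTC3 differed more in WT than in HSF1+, and SPL2 more in HSF1+. Under AzC and heat shock, HSF1+ averaged only 4.75 and 5.68 CPM for PHO11, 6.52 and 7.67 for PHO12 and 2.39 and 6.77 for SPL2. The part of these low levels in the differences was not tested. All 4 genes were called under every alternative run, and with each library left out in turn the values ran from -1.23 to -1.12 in VTC3, -1.54 to -1.25 in SPL2, -1.91 to -1.59 in PHO11 and -1.76 to -1.26 in PHO12. PHO11 and PHO12 share most of their sequence and count as nearly 1 result.

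For hsf1∆ against HSF1+, the same difference was 1.39 in PHO84 and 1.41 in PHM6. Both rest on the 3 libraries labelled AzC-treated hsf1∆, which could not be told from untreated hsf1∆. Without the first heat-shocked HSF1+ library, the highest of its group for PHO84, that gene was at 0.91 (adjusted p = 0.102).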

How the results depend on the processing

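Counts of members called that moved with the setting were small ones, and the cause was not tested. For hsf1∆ against HSF1+ the count of 1 was 2 under heat shock and 2 under AzC with scaling by library size alone, and under heat shock it ran from 0 to 1 with each library left out in turn. For labelled msn2/4∆ against WT under AzC, the count of 1 was 2 with RLE size factors, library size alone, DESeq2, replicate number as a block, or replicates 2 and 3 alone, and it ran from 0 to 3 with each library left out. For AzC over heat shock in HSF1+, the count of 2 was 1 with replicates 2 and 3 alone and ran from 1 to 3 with each library left out. With PHO11 and PHO12 summed, AzC over heat shock gave 1 in labelled msn2/4∆ and 1 in WT. The interaction of hsf1∆ against HSF1+ had 2 members called, 1 with replicates 2 and 3 alone or the compared groups alone, and 0 to 2 with each library left out. Other targets called were 2 in place of 1 for hsf1∆ against HSF1+ under heat shock (library size alone), 2 in place of 1 for hsf1∆ against WT under AzC (RLE), and 0 in place of 1 for labelled msn2/4∆ against WT under AzC (RLE, and library size alone). With library size alone, the median log2 value of the members was -4.02 for untreated hsf1∆ against WT, -4.35 for untreated hsf1∆ against labelled msn2/4∆ and -1.88 for AzC over untreated in labelled msn2/4∆.

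That scaling moved the median of all genes by as much as 0.21 (untreated hsf1∆ against labelled msn2/4∆), and by 0.18 and 0.16 for hsf1∆ against HSF1+ under heat shock and AzC. No member called in at least 1 fit changed direction under any setting run. The counts of members called in hsf1∆ and HSF1+ against WT, under AzC and under heat shock, and in labelled msn2/4∆ against WT under heat shock stayed within 1.5 times of those given, under every setting run. Replicate number as a block, with PHO12 called in labelled msn2/4∆ against WT under AzC, changed no other call of a member. Depth limits PHM6 most, with counts down to 6 in heat-shocked hsf1∆.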

Other observations

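In hsf1∆, HSF1+ and WT, PHM7 and DIA3 of the pathway lists separated AzC from heat shock more widely than any of the 8 did. In labelled msn2/4∆ they did not, and PHO89 differed by -1.98 there. Over all genes, 32.4% were called between the treatments in hsf1∆, 21.3% in HSF1+, 13.6% in labelled msn2/4∆ and 17.4% in WT. The hsf1∆ values rest on AzC-treated libraries that could not be told from untreated hsf1∆. PHM7, a gene regulated by phosphate whose function is unknown, averaged 12.9 ± 3.45 CPM in AzC-treated hsf1∆ and 791 ± 383 in heat-shocked hsf1∆ (-5.94 ± 0.44, adjusted p = 9.48e-13). In HSF1+ it averaged 49.8 ± 11.5 CPM under AzC and 571 ± 178 under heat shock (-3.53 ± 0.38, adjusted p = 4.97e-09), and in WT 25.2 ± 5.87 CPM under AzC and 320.3 ± 169 under heat shock (-3.67 ± 0.40, adjusted p = 4.99e-09). In labelled msn2/4∆ the difference was not called (-0.83 ± 0.37, adjusted p = 0.056). DIA3, a putative acid phosphatase gene, was lower under AzC than under heat shock in all 4 strains, at -3.36 ± 0.14 (adjusted p = 1.14e-17) in hsf1∆, -3.50 ± 0.14 (adjusted p = 5.68e-18) in HSF1+, -1.53 ± 0.15 (adjusted p = 1.03e-09) in labelled msn2/4∆ and -2.64 ± 0.14 (adjusted p = 8.51e-15) in WT. PHM8 was likewise lower in all 4 strains, from -3.12 ± 0.16 (adjusted p = 2.58e-16) in hsf1∆ to -1.32 ± 0.15 (adjusted p = 1.05e-08) in WT.

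PHO3 and the transporter gene PHO90 were higher under AzC than under heat shock in both cassette strains. The hsf1∆ values here rest on the same AzC-treated libraries, which could not be told from untreated hsf1∆. PHO3 differed by 2.66 ± 0.21 (adjusted p = 3.56e-12) in hsf1∆ and 1.85 ± 0.20 (adjusted p = 5.81e-09) in HSF1+, and PHO90 by 2.94 ± 0.28 (adjusted p = 1.77e-10) in hsf1∆ and 1.47 ± 0.26 (adjusted p = 1.43e-05) in HSF1+. PHO90 was also called in labelled msn2/4∆ (1.11 ± 0.27, adjusted p = 0.000933). GIT1, a transporter of glycerophosphoinositol, was lower under AzC in hsf1∆ (-1.66 ± 0.19, adjusted p = 5.32e-09) and HSF1+ (-1.08 ± 0.18, adjusted p = 6.01e-06). PPN2, a polyphosphatase gene, was higher under AzC in WT (1.16 ± 0.094, adjusted p = 2.28e-11).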
